A study of Rattus norvegicus with 11 samples.

Results

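The cells described here carry the authors' joint name Mono/Macro in a single-cell survey of rat kidney. They were taken as all cells with exactly that name, 1106 of 114615 deposited cells, and were set against the 8008 cells named Mono and the 3859 named Macro. Monocytes are circulating myeloid cells made in the bone marrow that enter tissues during injury. There they can turn into macrophages, the resident and recruited phagocytes that clear debris, present antigen and release cytokines. In the kidney both are known to gather in the interstitium in diabetic and obesity-related disease, and cells passing between these states can carry features of both.

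Kidneys of 11 male ZSF1 rats, 12 weeks old on arrival, were profiled by droplet sequencing of 3′ transcript ends, with 1 library per animal. There were 3 obese rats given enalapril, 4 obese rats without it and 4 lean rats. Enalapril inhibits angiotensin-converting enzyme and was given in the drinking water at a concentration readjusted weekly to body mass and water intake. The untreated obese rats were the vehicle arm of a random split. Their treatment label and that of the lean rats is "none", and whether lean rats drank vehicle is not stated. All 11 animals carry the same genotype label, ZSF1-LeprfaLeprcp/Crl, so that obese and lean rats differ in the labels only by phenotype. ZSF1 is a hybrid rat cross with a pair of defective leptin receptor alleles. Its obese animals become diabetic and hypertensive, and the lean rats are controls of the same cross and not of an outside strain.

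The deposited table gives each cell's name, animal, group, depth, mitochondrial share, cell cycle scores and position on the authors' map, and no gene values. The markers Lyz2, a lysozyme of phagocytes, and Cd68, a lysosomal protein of macrophages, were therefore not analysed here, and the name Mono/Macro stands as the authors gave it. The sources used here do not state how doublets, droplets that hold more than 1 cell, were handled. The libraries held 4232 to 18427 cells, where the labels give 10000 cells loaded per reaction. The median number of UMIs per cell, the count of distinct captured transcripts, ran from 407 to 3092 over the animals. Lean rat 2 was the shallowest library, and several results are also given without it. Of the 1106 cells, 29 (2.62%) had a barcode that also occurs in another library, against 2.86% of all cells. In 0 of those cases was the barcode Mono/Macro in both libraries.

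Mono/Macro cells were more frequent in obese than in lean kidneys. They made up 1.71%, 1.67%, 1.81% and 1.29% of all cells in obese rats 1 to 4, against 0.377%, 0.402%, 0.506% and 0.201% in lean rats 1 to 4. All obese animals lay above all lean animals. The mean was 1.62% ± 0.230 in obese and 0.371% ± 0.127 in lean rats (SD, n = 4 each). Counting error was widest in the lean rats, where lean rat 4 had 13 such cells and an exact 95% Clopper-Pearson interval of 0.107% to 0.343%, which covers counting error only. The log2 fold change was 2.12 ± 0.43 (SE, edgeR quasi-likelihood test on cells per animal, adjusted p = 0.000750). In that comparison 60% of the 20 cell types tested were called, so a call was the more common outcome among the types. Beside it, Mono cells had a log2 fold change of 1.66 ± 0.42 (adjusted p = 0.00461) and Macro cells 0.94 ± 0.44 (adjusted p = 0.0705). These are shares of recovered cells, so more Mono/Macro cells and fewer cells of other types cannot be told apart.

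Enalapril-treated obese rats held Mono/Macro shares between those of the other groups, and no call was made. The shares were 0.440%, 0.629% and 1.22% in enalapril-treated rats 1 to 3, with a mean of 0.762% ± 0.406 (SD, n = 3). Every treated animal lay below the 4 untreated obese rats, and 2 of the 3 lay above all lean rats. Against obese rats the log2 fold change was -1.10 ± 0.45 (edgeR, adjusted p = 0.240), where 0% of 20 types were called and 2 had an unadjusted p under 0.05. Against lean rats it was 1.02 ± 0.45 (edgeR, adjusted p = 0.0974), where 15% of 20 types were called. Without enalapril-treated rat 3 this was 0.52 ± 0.49 (edgeR, adjusted p = 0.546), and with only cells under 10% mitochondrial UMIs 1.65 ± 0.63 (edgeR, adjusted p = 0.0597). Both comparisons share the treated animals, and the first shares the obese animals with the comparison of obese against lean rats.

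**Figure D1:**
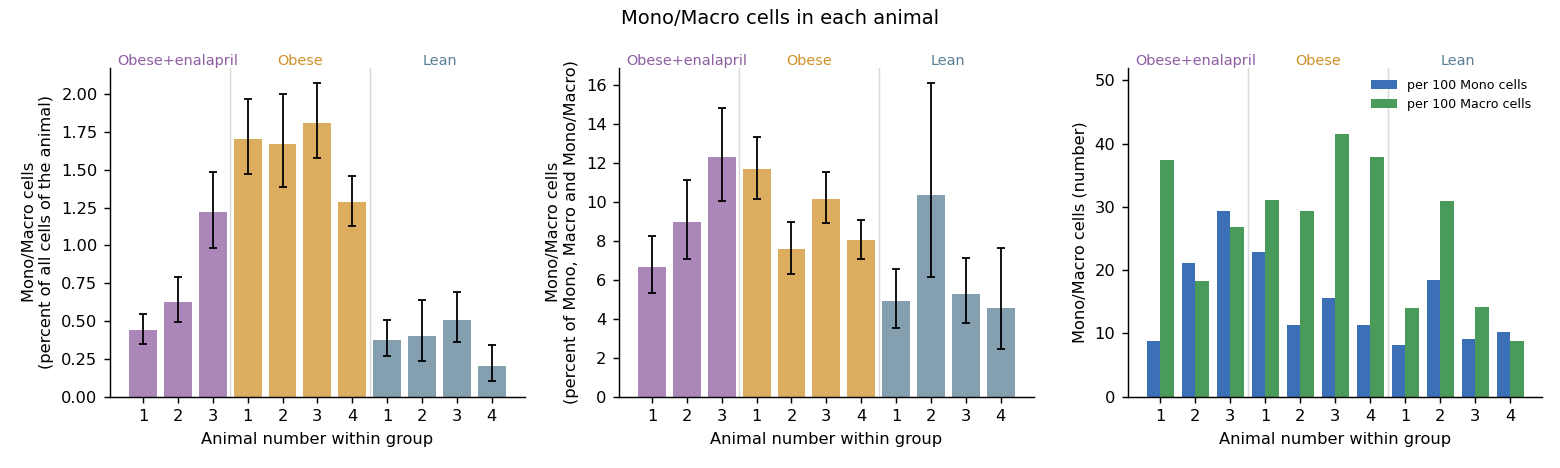
Mono/Macro cells per animal as a percent of all cells (left) and of myeloid cells (middle), with exact 95% intervals, and per 100 Mono or Macro cells (right). Obese rats sit between 1.29% and 1.81% of all cells and lean rats between 0.201% and 0.506%, whereas the shares of myeloid cells overlap between groups.

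The next comparison asked whether Mono/Macro cells changed beyond the myeloid cells as a whole, that is, beyond the sum of Mono, Macro and Mono/Macro. They formed 6.67%, 8.94% and 12.3% of myeloid cells in enalapril-treated rats, 11.7%, 7.55%, 10.2% and 8.02% in obese rats, and 4.90%, 10.4%, 5.27% and 4.53% in lean rats. The groups overlapped through lean rat 2, while all treated and obese animals lay above the other 3 lean rats. Mean shares (± SD) were 9.30% ± 2.82 over the 3 treated animals, 9.35% ± 1.92 over the 4 obese and 6.27% ± 2.75 over the 4 lean animals.

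The share within the myeloid cells had a log2 fold change of 0.69 ± 0.28 in obese against lean rats (edgeR, adjusted p = 0.0754), where 23.5% of the 17 types tested within their compartments were called. Enalapril-treated against lean rats gave 0.67 ± 0.31 (edgeR, adjusted p = 0.0985), with 29.4% of types called. Treated against untreated obese rats gave -0.02 ± 0.28 (edgeR, adjusted p = 0.955), with 5.88% called. Without lean rat 2, the first of these was 0.92 ± 0.25 (edgeR, adjusted p = 0.0161) and the second 0.90 ± 0.27 (edgeR, adjusted p = 0.0376), both past the threshold. That animal had a median of 407 UMIs per cell and 17 Mono/Macro cells. With only cells of at least 1000 UMIs, which leaves lean rat 2 no myeloid cell, obese against lean rats gave 0.89 ± 0.23 (edgeR, adjusted p = 0.0110) and treated against lean rats 1.25 ± 0.24 (edgeR, adjusted p = 0.00959). This floor removed mostly Mono and Macro cells, so it changes the share itself, and more so in shallow libraries. Enalapril-treated rat 1 lost 713 of 1184 myeloid but 6 of 79 Mono/Macro cells, and lean rat 1 lost 172 of 858 and 2 of 42. The part of the floor in these values was not tested.

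Set against Macro cells alone, Mono/Macro cells numbered 37.4, 18.4 and 26.8 per 100 Macro cells in enalapril-treated rats, 31.1, 29.3, 41.6 and 37.9 in obese rats, and 14.0, 30.9, 14.2 and 8.84 in lean rats. Of the obese rats, 3 of 4 lay above all lean rats, and all 4 lay above the lean rats other than lean rat 2. For obese minus lean rats the log2 ratio differed by 1.18 ± 0.39 (SE). A two-sided exact permutation test gave p = 0.0571, where 4 against 4 animals can reach 0.0286 before adjustment. Treated rats differed by -0.39 ± 0.32 from obese rats and by 0.79 ± 0.48 from lean rats, with exact permutation p values of 0.229 and 0.171. Without lean rat 2 the difference from lean rats was 1.52 for obese and 1.13 for treated rats.

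Per 100 Mono cells there were 8.84, 21.1 and 29.3 Mono/Macro cells in enalapril-treated rats, 22.9, 11.3, 15.5 and 11.3 in obese rats, and 8.12, 18.5, 9.13 and 10.2 in lean rats. The groups overlapped. Log2 differences were 0.43 ± 0.36 for obese minus lean rats, 0.27 ± 0.57 for treated minus obese rats and 0.70 ± 0.58 for treated minus lean rats. Without lean rat 2 the first of these was 0.68. After adjustment over the 6 ratio tests none passed, with adjusted exact permutation p values of 0.343 in 5 of them and 0.686 for treated against obese rats in the ratio to Mono. Before adjustment the smallest p is 0.0571 with 3 against 4 animals and 0.0286 with 4 against 4. After adjustment over the 6 tests neither value is low enough, so none of the 6 could have passed. The lack of a call, also for obese against lean rats, therefore decides nothing about these ratios.

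Mono/Macro cells were deeper than Mono and Macro cells in every animal. Their median UMIs per cell were 2154, 6135 and 4976 in enalapril-treated rats, 4599, 5557, 7612 and 6674 in obese rats, and 2938, 431, 5107 and 4590 in lean rats. Mono cells of the same animals had medians of 876, 2239 and 2158 in treated rats, 1924, 2440, 2965 and 3059 in obese rats, and 1500, 269, 2390 and 2017 in lean rats. Macro cells had 897, 2174.5 and 2328 in treated rats, 2251, 2226, 3554 and 2802.5 in obese rats, and 1197, 330, 2110 and 1540 in lean rats. The Mono/Macro median was 1.60 to 2.74 times the Mono median and 1.31 to 2.98 times the Macro median, above both in 11 of 11 animals. On the log2 scale the difference within animals was 1.17 ± 0.21 against Mono and 1.19 ± 0.31 against Macro (SD, n = 11, exact two-sided sign-flip permutation test, p = 0.000977 each, the smallest that 11 animals allow, and 0.00156 after adjustment over 8 tests). The names rest on gene counts of these same cells, so the test sets the size of the gap against the spread between animals and does not show how the gap came about.

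Mono/Macro cells held about as many UMIs as a Mono and a Macro cell together, or more. Their median was 1.09 to 1.39 times the sum of the Mono and the Macro median in 10 animals, and 0.720 times that sum in lean rat 2. Over all cells pooled, the median of 5406 UMIs was the highest of the 21 cell types, ahead of urothelial cells at 4280.5. Within animals they ranked first in obese rat 4 only and between rank 2 and rank 6 in the other animals. The largest Mono/Macro cell held 18224 UMIs, the largest Mono cell 11670 and the largest Macro cell 16510. The part of doublets in these depths was not tested.

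More genes were detected per Mono/Macro cell as well. Median genes per cell ran from 864 to 1684.5 in enalapril-treated rats, from 1411 to 2053 in obese rats and from 232 to 1519 in lean rats. The log2 difference within animals was 0.62 ± 0.15 against Mono and 0.80 ± 0.24 against Macro (SD, n = 11, exact sign-flip permutation test, adjusted p = 0.00156 each), again in 11 of 11 animals. At least 2500 genes were found in 48 Mono/Macro cells (4.34%), against 8 Mono cells (0.0999%) and 42 Macro cells (1.09%). No cell in the table had more than 2971 genes. Obese rat 3 held 15.8% of such cells among its Mono/Macro cells and obese rat 4 held 5.06%, while the other animals held at most 1.39%.

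The excess of genes went with depth. Compared at matched UMIs, in bins 0.5 wide on the log2 scale, genes per Mono/Macro cell differed from Mono by -2.71e-05 ± 0.060 on the log2 scale (SD, n = 11, exact permutation test, adjusted p = 0.999). The difference from Macro was 0.03 ± 0.06 (SD, n = 10, 8 of 10 animals above, exact permutation test, adjusted p = 0.0781). Without obese rat 2 the difference from Macro was 0.04 with an adjusted exact permutation p of 0.0156.

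**Figure D2:**
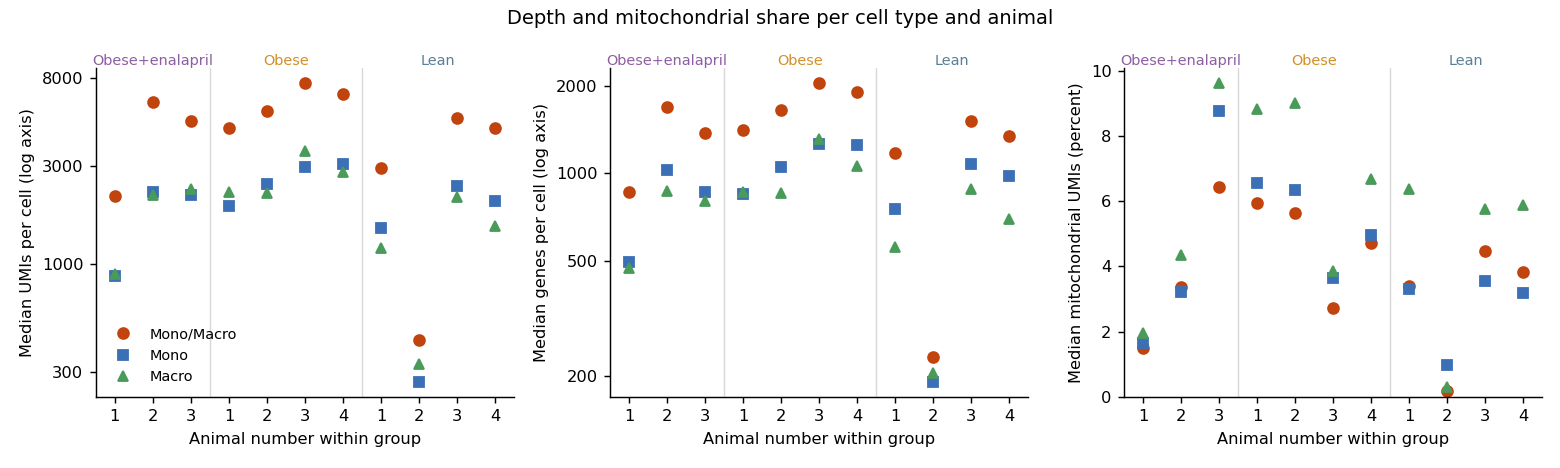
Median UMIs and genes per cell (log axes) and median mitochondrial percent of Mono/Macro, Mono and Macro cells in each animal. Mono/Macro points lie above both other types in UMIs and genes in 11 of 11 animals, and below Macro in mitochondrial percent in 11 of 11.

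Mono/Macro cells were most frequent among the deepest myeloid cells of every animal. When the myeloid cells of an animal were ordered by UMIs and cut into 5 equal parts, the deepest of these held a mean (± SD) of 34.9% ± 8.31 Mono/Macro cells over the 3 enalapril-treated animals, 36.3% ± 5.90 over the 4 obese and 21.3% ± 6.35 over the 4 lean animals. Treated animals ran from 27.4% to 43.9%, obese animals from 30.7% to 42.5% and lean animals from 15.5% to 30.3%. In the 4 shallower parts the means over all 11 animals were 2.10%, 1.12%, 1.61% and 5.69%, from the shallowest up, without a steady climb. Of all Mono/Macro cells of an animal, 75.05% ± 7.25 lay in its deepest part (SD, n = 11). This describes depth and name together, since both come from the same counts.

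**Figure D3:**
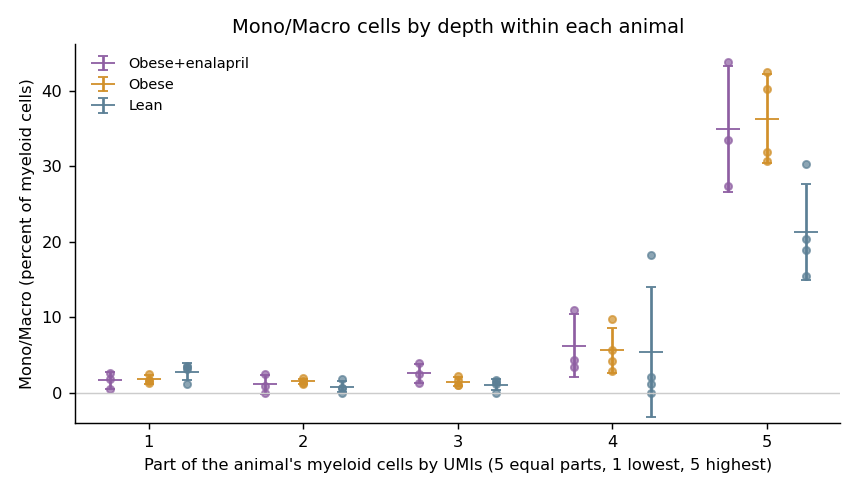
Percent of Mono/Macro among myeloid cells in each of 5 equal parts of an animal's myeloid cells by UMIs, from the shallowest (1) to the deepest (5). Points are animals, bars are group means ± SD, and the deepest part holds 15.5% to 43.9%.

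Depth of the Mono/Macro cells did not pass a test between groups. In limma on the median of log2 UMIs, obese minus lean rats gave 1.36 ± 0.69 (adjusted p = 0.281), treated minus obese rats -0.57 ± 0.74 (adjusted p = 0.955) and treated minus lean rats 0.79 ± 0.74 (adjusted p = 0.658). In each of these comparisons 0% of 20 types were called, with 2, 0 and 1 types at an unadjusted p under 0.05. Without lean rat 2, obese minus lean rats gave 0.55 (limma, adjusted p = 0.530) and treated minus lean rats -0.02 (limma, adjusted p = 0.974), with the sign turned. Without enalapril-treated rat 1, treated minus obese rats gave -0.12 (limma, adjusted p = 0.998). Median log2 genes gave 1.01 ± 0.52 (adjusted p = 0.321), -0.46 ± 0.57 (adjusted p = 0.944) and 0.55 ± 0.57 (adjusted p = 0.775) in the same limma comparisons, also with 0% called, and 1, 0 and 1 types at an unadjusted p under 0.05. Without lean rat 2 the log2 genes of obese minus lean rats gave 0.38 (limma, adjusted p = 0.547) and those of treated minus lean rats -0.08 (limma, adjusted p = 0.951).

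Mitochondrial transcripts took a smaller share of the UMIs in Mono/Macro than in Macro cells. Median mitochondrial percents of Mono/Macro cells were 1.51, 3.36 and 6.45 in enalapril-treated rats, 5.96, 5.64, 2.72 and 4.73 in obese rats, and 3.41, 0.186, 4.48 and 3.82 in lean rats. Those of Macro cells were 1.95, 4.35 and 9.63 in treated rats, 8.83, 9.01, 3.87 and 6.68 in obese rats, and 6.37, 0.290, 5.76 and 5.89 in lean rats. Mono/Macro was the lower in 11 of 11 animals, by a mean of -1.85 ± 1.14 percentage points (SD, n = 11, exact sign-flip permutation test, adjusted p = 0.00156). At matched UMIs the difference was -1.42 ± 3.46 (SD, n = 10, exact permutation test, adjusted p = 0.116) and was no longer called, with a wider spread between animals. Lean rat 4 had no bin with enough cells of both types, so the set of animals differs as well.

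Against Mono cells the mitochondrial percent differed by -0.356 ± 0.875 percentage points (SD, n = 11, lower in 7 of 11 animals, exact permutation test, adjusted p = 0.249), and by -0.160 without enalapril-treated rat 3. At matched UMIs this was -2.59 ± 3.19 (exact permutation test, adjusted p = 0.0203), and as a mean over cells -1.04 ± 1.30 (exact permutation test, adjusted p = 0.0273). Between groups the percent of Mono/Macro cells did not pass. It differed by 1.79 ± 2.01 for obese minus lean rats (limma, adjusted p = 0.436, 5% of types called), -0.990 ± 2.17 for treated minus obese rats (limma, adjusted p = 0.731, 0% called, 2 unadjusted) and 0.799 ± 2.17 for treated minus lean rats (limma, adjusted p = 0.832, 5% called). Without lean rat 2, obese minus lean rats gave 0.859 (limma, adjusted p = 0.729) and treated minus lean rats -0.131 (limma, adjusted p = 0.990).

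Cell cycle scores sum up genes of DNA synthesis (S) and of the approach to and passage through mitosis (G2M), relative to control genes, in arbitrary units. Since they come from the gene values that the names were made from, the comparison with Mono and Macro is a description. The mean G2M score of Mono/Macro cells was 0.0401, 0.0243 and 0.0265 in enalapril-treated rats, 0.0209, 0.0151, 0.0222 and 0.0162 in obese rats, and 0.00940, -0.000299, 0.0210 and -0.00283 in lean rats. It lay above that of Mono cells in 9 of 11 animals, by 0.00790 ± 0.0117, and above that of Macro cells in 10 of 11, by 0.0173 ± 0.0122 (SD, n = 11). Among cells with 1000 to 4000 UMIs, which 8 animals allowed, the difference from Mono was -0.00286 ± 0.0177, with 2 of 8 animals above, and that from Macro was 0.0103 ± 0.0106, with 7 of 8 above. This window still spans a range of depths and leaves out 3 animals, and both its mean difference from Mono and that over all cells were smaller than their SD.

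The S score showed no common direction. Mono/Macro means were 0.0267, 0.0139 and 0.00963 in enalapril-treated rats, 0.00330, 0.0114, 0.00555 and 0.00763 in obese rats, and 0.00657, -0.00292, -0.000377 and 0.00399 in lean rats. They lay above Mono in 4 of 11 animals, by 0.000669 ± 0.00949, and above Macro in 6 of 11, by 0.00277 ± 0.00870 (SD, n = 11). All 3 treated animals lay above both other types. The authors' phase calls put 51.5% ± 2.16 of Mono/Macro cells of treated rats in G2M (SD, n = 3), 51.1% ± 3.11 in obese rats and 43.0% ± 12.5 in lean rats (SD, n = 4 each). In the same order of groups, the calls put 43.2%, 44.6% and 34.8% of Mono cells and 29.1%, 34.5% and 29.5% of Macro cells in G2M. Mono/Macro was above both in 11 of 11 animals, though in lean rat 2, with 17 Mono/Macro cells, only by 29.4% against 29.1% of Macro cells. Phase shares were not compared at matched UMIs. Phase calls alone are not a count of dividing cells. A score over 0.2 on either scale was reached by 22 Mono/Macro cells (1.99%), against 6 Mono cells (0.0749%) and 83 Macro cells (2.15%).

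Both scores of Mono/Macro cells were higher in enalapril-treated than in lean rats. The G2M score differed by 0.0235 ± 0.00537 (SE, limma, adjusted p = 0.00729), with all 3 treated animals above the 4 lean animals. The S score differed by 0.0149 ± 0.00382 (limma, adjusted p = 0.0438), again with no overlap. In each comparison 5% of 20 types were called, which is Mono/Macro alone. Obese minus lean rats gave 0.0118 ± 0.00497 for G2M (limma, adjusted p = 0.155) and 0.00515 ± 0.00354 for S (adjusted p = 0.312), with 0% called, and 5 and 6 types at an unadjusted p under 0.05. Treated minus obese rats gave 0.0117 ± 0.00537 for G2M (limma, adjusted p = 0.295) and 0.00977 ± 0.00382 for S (adjusted p = 0.511), with 0% called, and 3 and 1 types unadjusted. Without enalapril-treated rat 1 these were 0.00680 (limma, adjusted p = 0.681) and 0.00481 (limma, adjusted p = 0.994). Without lean rat 3 the G2M difference of obese from lean rats was 0.0165 (limma, adjusted p = 0.0201).

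The calls against lean rats did not hold in every setting. Without enalapril-treated rat 1, whose Mono/Macro cells had the highest scores and the lowest median depth of their group, G2M gave 0.0186 (limma, adjusted p = 0.102) and S 0.00996 (limma, adjusted p = 0.144). With at least 20 cells per animal, which leaves out lean rats 2 and 4, G2M gave 0.0151 (limma, adjusted p = 0.119) and S 0.0136 (limma, adjusted p = 0.142). The S call was also lost without treated rat 2, obese rats 3 or 4, or lean rats 2, 3 or 4, with values of 0.0133 to 0.0163 (limma, adjusted p = 0.0695 to 0.0927). With only cells of at least 1000 UMIs, G2M gave 0.0191 (limma, adjusted p = 0.0733) and S 0.0112 (limma, adjusted p = 0.176). With the median in place of the mean, G2M gave 0.0217 (limma, adjusted p = 0.393) and S 0.000225 (limma, adjusted p = 0.985).

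**Figure D4:**
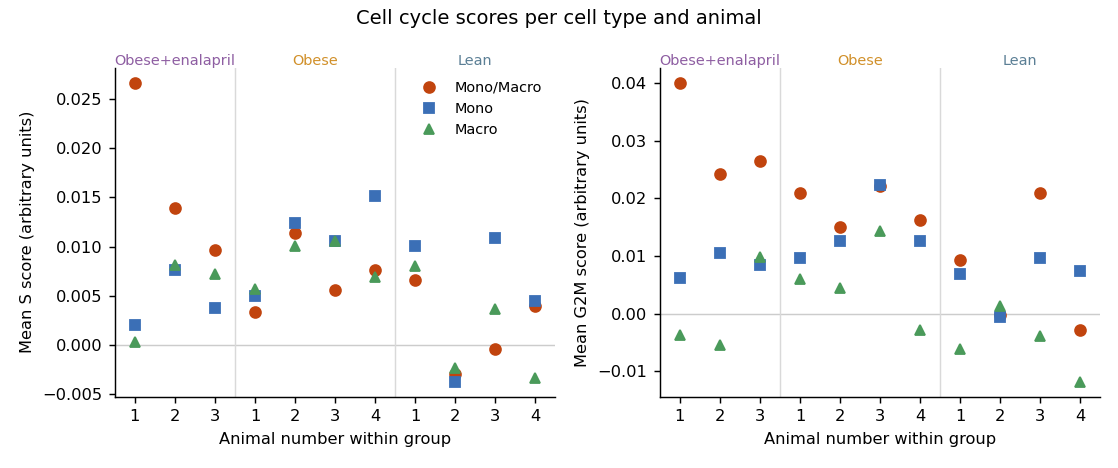
Mean S score (left) and mean G2M score (right) of Mono/Macro, Mono and Macro cells in each animal, in arbitrary units. The 3 enalapril-treated rats have Mono/Macro G2M means of 0.0243 to 0.0401, above the 4 lean rats at -0.00283 to 0.0210.

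On the authors' two-dimensional map, Mono/Macro cells formed a group of their own that lay between both other types along the horizontal axis. The centre of the group, its median coordinates, lay 2.70 map units from that of Macro and 4.38 from that of Mono, whose centres were 6.78 apart. B cells came next at 4.47 and T cells at 7.78. On the vertical axis the Mono/Macro centre stood at -0.0342, below those of Macro at 0.169 and Mono at 2.13. It thus lay off the line between them. Projected on the line from the Mono centre (0) to the Macro centre (1), the median cell stood at 0.63, with the middle 50% of cells between 0.452 and 0.687. The animals' medians were 0.648, 0.638 and 0.635 in enalapril-treated rats, 0.625, 0.641, 0.638 and 0.623 in obese rats, and 0.503, 0.647, 0.618 and 0.620 in lean rats. Lean rat 1 apart, they differed little between animals. Map distances have no fixed scale, and the map was made from the same gene values as the names.

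Of the 30 nearest map neighbours of a Mono/Macro cell, 88.7% were Mono/Macro, 5.05% Macro, 3.70% T cells and 2.04% Mono. Mono cells had 99.1% and Macro cells 95.6% neighbours of their own name. With 10 or 100 neighbours the own share was 89.4% and 86.8%. At least 90% of neighbours were Mono/Macro for 921 of the cells (83.3%), and 53 cells lay apart from the connected main group.

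The connected main group held 1053 cells. Cut at equal steps along the line between the centres, 332 cells lay on the Macro side, 526 in the middle and 195 on the Mono side. Their median UMIs were 5935.5 on the Macro side, 5719 in the middle and 4339 on the Mono side, which is 2.59, 2.52 and 1.82 times the Mono median of the cell's own animal. The mean G2M score was 0.0255 on the Macro side, 0.0213 in the middle and 0.000481 on the Mono side, and the mean S score 0.00886, 0.00780 and -0.00859. The cells nearest to Mono were thus the shallowest and had the lowest scores of these stretches.

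**Figure D5:**
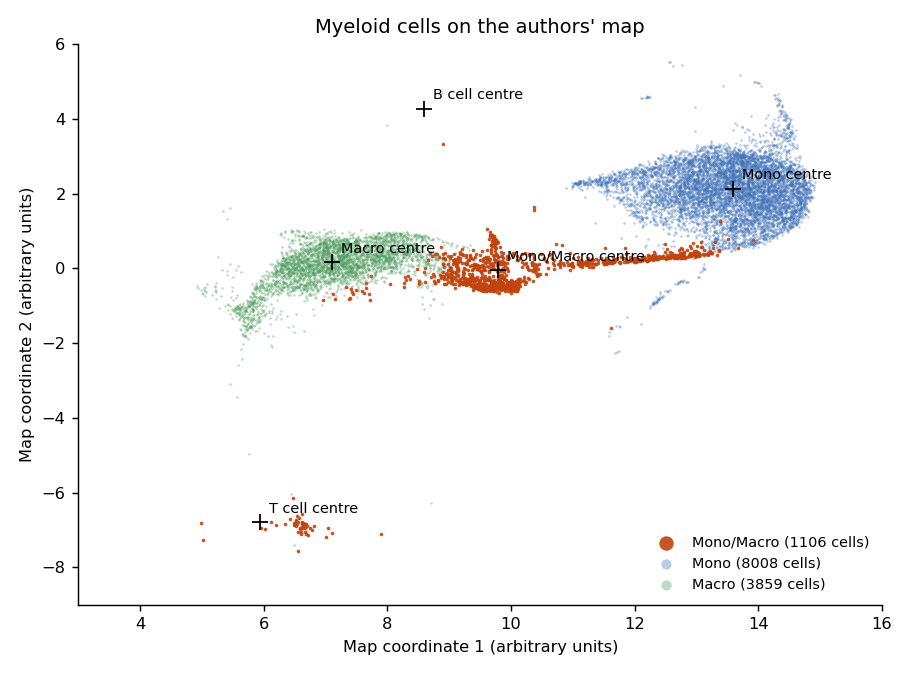
Mono/Macro, Mono and Macro cells on the authors' map in arbitrary units, with the median position of these types and of T and B cells as crosses. The Mono/Macro centre lies between Macro (left) and Mono (right) along the horizontal axis, and 46 cells form a separate group beside the T cell centre.

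A second group of 46 Mono/Macro cells lay beside the T cells, and 7 more were scattered. Of their 30 nearest neighbours, 82.1% were T cells and 17.2% Mono/Macro. The group held 16 of 246 Mono/Macro cells in enalapril-treated rats (6.50%, exact 95% interval 3.76% to 10.3%), 30 of 749 in obese rats (4.01%, 2.72% to 5.67%) and 0 of 111 in lean rats. The exact 95% upper limit in lean rats is 3.27%, which lies above the lower limit of the obese rats, so those intervals overlap. It lies below the lower limit of the treated rats. By the plainer rule of 3 counts, 0 of 111 cells allows a share of up to 2.70%, an upper limit only, which is not comparable with the ends of the intervals. These limits pool the cells of a group's animals and cover counting error only, so neither their overlap nor their gap compares the groups. The animals held 6, 6 and 4 such cells in treated rats, 10, 2, 9 and 9 in obese rats, and none in any lean rat. The group was picked out after the map was seen and was not tested between groups.

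The cells of this group had a median of 4209 UMIs and 1483 genes and a median mitochondrial percent of 2.77. Their depth was 2.02 times the Mono median of their own animal. Their mean S score was 0.0720 and their mean G2M score 0.0548, above every stretch of the main group, and 6 of them had a score over 0.2. With these cells and the scattered ones left out, a setting chosen after seeing the map, treated minus lean rats gave 0.00601 for the S score (limma, adjusted p = 0.311) and 0.0190 for G2M (limma, adjusted p = 0.0365). The frequency of Mono/Macro cells in obese against lean rats was then 2.06 ± 0.43 on the log2 scale (edgeR, adjusted p = 0.000879). Whether these cells are droplets with a T cell and a myeloid cell was not tested.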

How the data were processed

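Single kidney cells of 11 rats were the starting point, with 1 library per animal. Per the submitters' processing notes, Seurat 4.3.0, Cell Ranger 7.0.1 and rn6 were used, in roles left unnamed. Filters, clustering, scoring and doublet handling were not given in the sources used here. UMIs and genes per cell are raw counts deposited by the authors, per the file headers. The mitochondrial share is a percent deposited by the authors. The authors deposited an S score and a G2M score for each cell, with its phase, name, group and map coordinates. The members and lists were chosen with earlier results of these data known.

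Cells were counted per name and animal. Cell numbers were tested with edgeR 4.0.16 (quasi-likelihood, robust) on 20 types with a mean of at least 10 cells, with all cells of the animal as library size, and on 17 types with their compartment's cells as library size. Per-animal medians of log2 UMIs, log2 genes and mitochondrial percent, and means of scores, from at least 10 cells, were tested with limma 3.58.1. Benjamini-Hochberg adjustment ran over all types of a contrast, with a threshold of 0.05. Ratios and differences within animals were tested with exact two-sided permutation tests, adjusted over 6 and 8 tests. Cycle scores and map positions of cell types were described without a test. Types named were Mono/Macro, Mono and Macro, and others only where nearest on the map or ranked beside them. Groups on the map were joined with DBSCAN (radius 0.7, at least 5 cells). Fits were tested on simulated data. Sample codes share stems in pairs of animals that are always of 1 group. Each group holds more than 1 stem, and 1 treated animal has a stem of its own. What a stem stands for is not stated. No fit took stems into account, so animals that share a stem were treated as independent. The labels name each library's animal, and p values measure the spread between animals. Alternatives tried were other normalizations, filters on depth, mitochondrial percent and cell number, other summaries, each animal left out, a replicate block, and DESeq2 1.42.0. Other software was scikit-learn 1.9.0, scipy 1.17.1, R 4.3.3, matplotlib 3.10.9, pandas 2.3.3, numpy 2.4.6 and Python 3.11.15.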

Additional observations from a re-analysis of the deposited data

Results flagged for a closer look

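In lean rat 2, Mono/Macro cells made up 10.4% of myeloid cells, far from the 4.53% to 5.27% of the other 3 lean rats, in 1 of the 28 groups of 4 animals examined this way. Chance alone sets apart about 1 in 20 such groups. This library had a median of 407 UMIs per cell and 17 Mono/Macro cells, and its part in the value was not tested.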

How the results depend on the processing

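Over 40 results and 552 alternatives, 504 were rated unchanged, 9 gained a call, 17 lost one and 22 turned sign. For tested results, unchanged means the same direction and side of the threshold. For the within-animal cycle scores and the neighbour share, which had no test, it means a shift smaller than the SD. Among these, the score differences from Mono at 1000 to 4000 UMIs turned sign, to -0.00670 for S and -0.00286 for G2M. They are not counted in the 22. The rise in obese over lean rats was called without any 1 animal, at 1.91 to 2.31. Animals of 1 replicate number are not tied together by the labels. The deviations of 10 same-number pairs correlated at -0.472 to 0.513, with 5 over 0.1. Such mixed values cannot decide whether the numbers pair the animals, and the main fits used no replicate block. With a replicate block the frequency in treated against obese rats was -1.36 (edgeR, adjusted p = 0.0463), past the threshold, and the S score in treated against lean rats 0.0154 (limma, adjusted p = 0.0520), no longer past it. The block changed no other call.

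Cells of at least 1000 UMIs moved the share of myeloid cells to 0.89 for obese against lean, 1.25 for treated against lean and 0.36 for treated against obese rats, the last turned in sign. That floor removed mostly Mono and Macro cells and so changes the share itself. The same cells gave 0.0112 for S and 0.0191 for G2M in treated against lean rats, both calls lost. A minimum of 20 cells gave -0.082 for log2 genes, -0.173 for mitochondrial percent, 0.0136 for S and 0.0151 for G2M in treated against lean rats, and 0.014 for genes at matched UMIs against Mono. Means over cells gave a mitochondrial percent of -0.328 in treated against lean rats and -1.04 against Mono. Medians of scores gave -0.00282 for S in treated against obese rats, and 0.000225 for S and 0.0217 for G2M in treated against lean rats. At matched UMIs the mitochondrial difference was -2.59 from Mono and -1.42 from Macro. The main map group alone gave 0.00601 for S in treated against lean rats. Causes were not tested.

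Leaving out 1 animal moved the share of myeloid cells between 0.57 and 0.92 for obese against lean, 0.43 and 0.90 for treated against lean, and -0.27 and 0.18 for treated against obese rats. The ratio to Mono ran from -0.10 to 0.77 in treated against obese rats. In treated against lean rats log2 UMIs ran from -0.022 to 1.24, log2 genes from -0.083 to 0.82, mitochondrial percent from -0.540 to 1.93, S from 0.00996 to 0.0185 and G2M from 0.0186 to 0.0282. Mitochondrial percent ran from -2.33 to 0.141 in treated against obese rats, and G2M from 0.00858 to 0.0165 in obese against lean rats. In obese against lean rats log2 UMIs ran from 0.55 to 1.74, log2 genes from 0.38 to 1.28 and mitochondrial percent from 0.859 to 2.47. The frequency ran from 0.52 to 1.30 in treated against lean rats, S from 0.00481 to 0.0133 in treated against obese rats, and mitochondrial percent against Mono from -0.485 to -0.160. Genes at matched UMIs ran from -0.0096 to 0.011 against Mono and from 0.015 to 0.039 against Macro. Depth could not be set equal by thinning without gene counts, and 13 to 42 cells per lean rat limit every comparison with lean rats.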
